A study of Mus musculus with 6 samples.

Results

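The chemokines and chemokine receptors of iWAT, the inguinal subcutaneous white fat pad of the mouse, were 37 genes, of 15176 in the table. They were the genes whose identifier maps to a protein-coding symbol of the Ccl, Cxcl, Cx3c, Xcl, Ccr, Cxcr or Ackr families, and comprised 23 ligands, 10 typical receptors and 4 atypical receptors. The families have 59 protein-coding genes in the annotation. The other 22 were not analysed here, among them Ccl3, Ccl4, Ccl17, Ccl20, Cxcl2, Cxcl5, Cxcr1, Cxcr2, Ccr3, Ccr4, Ccr6, Ccr8 and Ccr9. RNA was sequenced from iWAT of mice on a high-fat diet. The 4 control libraries (replicates 1, 2, 5 and 6) were Steap4f/f, with a floxed Steap4 gene, and the 2 others (replicates 2 and 3) were Steap4AKO, with Steap4 deleted in adipocytes. All groups therefore share the diet and the floxed allele. The promoter of the Cre, the sex and the age are not given in the sources used here, nor is it stated that each library is a separate mouse, so that p-values measure the spread between these libraries, which may be technical.

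Chemokines are small secreted or membrane-held proteins that form gradients and guide leukocytes. They act through G protein-coupled receptors on the migrating cell, while atypical receptors bind and remove or transport chemokines without classical G protein signalling. In adipose tissue of obese mice, the Ccl2-Ccr2 axis is best known for recruiting monocytes that become macrophages, and Cxcl12 is made by stromal cells.

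The deposited normalized values summed to 16573561 to 20547925 per library, lowest in Steap4AKO replicate 2, and the depth in reads is unknown. Steap4, the targeted gene, was 8310 to 17018 in Steap4f/f and 8014 to 8313 in Steap4AKO (log2 difference -0.35, adjusted p = 0.544 in limma), in RNA of whole tissue. The 8 adipocyte markers were all in the table, and their summed level in Steap4AKO replicates 2 and 3 was 0.698 and 0.979 times the Steap4f/f mean. They did not move together: the median marker was 0.584 and 1.06 times its mean, and Lep was 3.35 and 2.64 times. In replicate 2, 6 of the 8 were below every Steap4f/f library and Lep alone was above. The Steap4AKO libraries differed from each other: in replicate 2, the summed markers of macrophages and monocytes were 3.32 times the Steap4f/f mean, those of B cells 6.84 times, those of mesothelium 12.3 times and those of epithelium 42.9 times, against 0.944, 0.759, 0.139 and 0.792 times in replicate 3. Skeletal muscle markers were 0.00518 and 0.0334 times the Steap4f/f mean in replicates 2 and 3. In whole-tissue RNA, fewer cells of a type and less RNA per cell cannot be told apart. The part of these differences in the chemokine values was not tested, except where a ratio to a marker sum is given.

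No chemokine or receptor differed between the genotypes past the threshold. In limma on log2(value + 1), 0 of the 36 genes tested passed an adjusted p of 0.05, the smallest being 0.168, where 0.473% of all genes did. At an unadjusted p under 0.05 there were 9 of 36, or 25%, with 6 higher and 3 lower in Steap4AKO, against 18.1% of all genes. Cxcr5, the 37th gene, had a mean under 10 and was not tested. Without Steap4AKO replicate 3, which leaves replicate 2 as the only Steap4AKO library, 4 of 37 members (10.8%) passed, where 5.47% of all genes did: Cxcl9 (adjusted p = 0.0422), Ccr2 (0.0309), Ccl28 (0.038) and Ccl21a (0.0345). Without any other library, 0 did. No gene of the table has a maximum under 11.8, so members with low control values, such as Ccl22 and Ccr7, could enter it through 1 high library. The median log2 difference was 0.77 over the 36 genes, with 26 positive and 10 negative, and 0.02 over all genes.

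In the members, the Steap4AKO libraries differed from each other. In replicate 2, 21 of the 36 genes tested (58.3%) lay above every Steap4f/f library and 5 (13.9%) below, where 31.5% of all genes lay above and 28.6% below. In replicate 3, 9 of 36 (25%) lay above and 7 (19.4%) below, close to the 24.4% and 23.4% of all genes. Replicate 2 was more than 2-fold above every other library in 13 of 36 members (36.1%), among them Ccl2, Ccl5, Ccl9, Ccl21a, Ccl28, Cxcl16, Ccr1, Ccr2, Ccr7, Cx3cr1, Cxcr6 and Ackr4, against 6.42% of all genes. Replicate 3 was so in 0 of 36, against 0.193% of all genes.

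**Figure D1:**
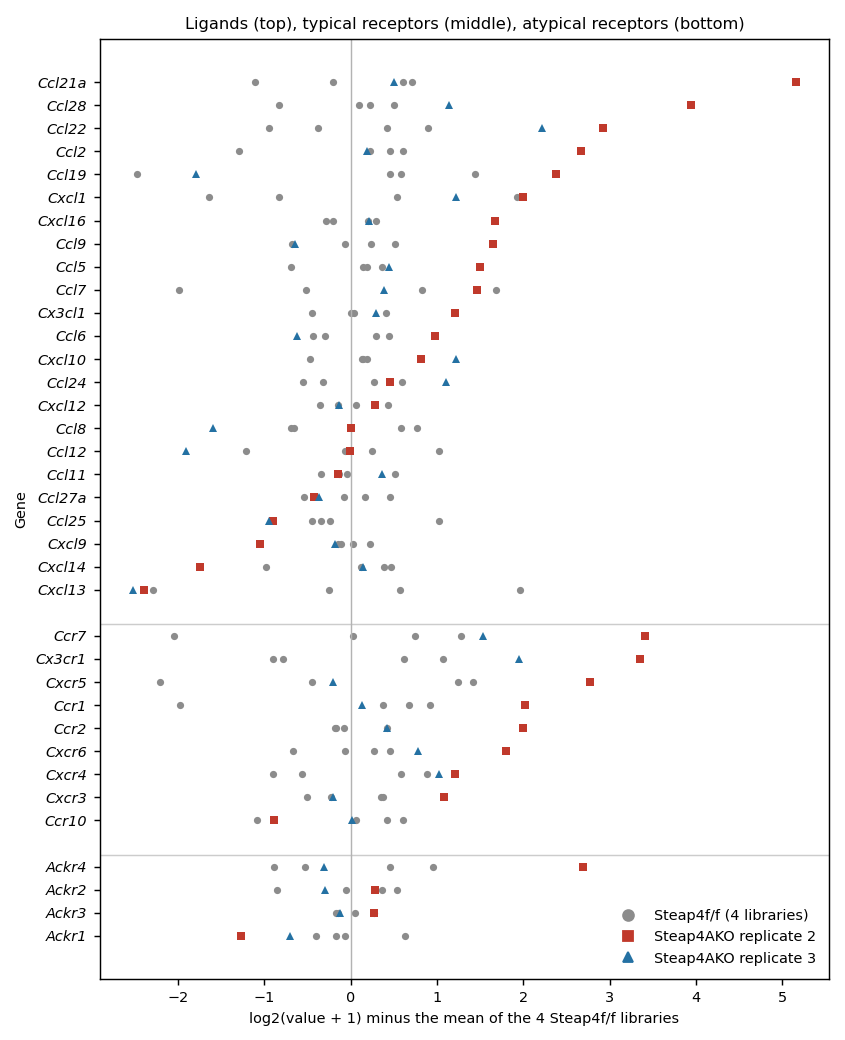
Each row is a gene, with 36 of the 37 drawn, and each point a library, on the x axis as log2(value + 1) minus the mean of the 4 Steap4f/f libraries; ligands are at the top, typical receptors in the middle and atypical receptors at the bottom. Of all 37 genes, Steap4AKO replicate 2 lies above every Steap4f/f library for 22 and replicate 3 for 9.

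Ligands and receptors were then compared. In Steap4AKO replicate 2, the median deviation from the Steap4f/f mean was 0.98 (log2) for the 23 ligands and 1.89 for the 14 receptors, a difference of 0.91. Over the members with a mean of at least 50, these medians were 0.82 and 0.75, and the difference was -0.07. In replicate 3 it was 0.19 for ligands and -0.03 for receptors, a difference of -0.22. The single Steap4f/f libraries had medians of -0.19 to 0.58 for ligands and -0.22 to 0.59 for receptors, with differences from -0.66 to 0.68. Replicate 2 was thus outside the control range for both classes, and replicate 3 within it for both.

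Most receptors above the controls in replicate 2 were typical ones: 9 of 10 were above every Steap4f/f library, all but Ccr10, where 31.5% of all genes were. These 9 include Cxcr5, which was not tested, and Ccr7, which passed the minimum mean only through its Steap4AKO values. Of the 4 atypical receptors, Ackr4 was above and Ackr1 below. In replicate 3, 4 of the 10 typical receptors were above every Steap4f/f library, against 24.4% of all genes. For ligands the counts in replicate 2 were 12 of 23 above (52.2%) and 4 below (17.4%), against 31.5% and 28.6% of all genes. In replicate 3 they were 5 above (21.7%) and 6 below (26.1%), close to the 24.4% and 23.4% of all genes.

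**Figure D2:**
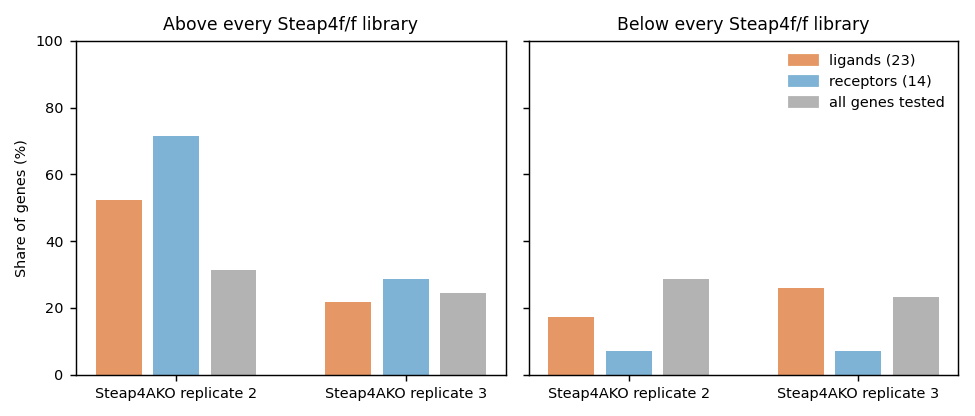
Share of genes (%) above (left) or below (right) every Steap4f/f library in each Steap4AKO library, for ligands, receptors and all genes tested. In replicate 2, 52.2% of ligands and 71.4% of receptors were above, against 31.5% of all genes tested. In replicate 3 the shares were 21.7%, 28.6% and 24.4%. The receptors include Cxcr5, which had a mean under 10 and was not among the genes tested.

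In both Steap4AKO libraries, 8 of 36 members (22.2%) were higher than in every Steap4f/f library, where 14.1% of all genes were: Ccl5, Ccl22, Ccl28, Cxcl10, Ccr7, Cxcr4, Cxcr6 and Cx3cr1. Another 4 (11.1%) were lower, where 14.4% of all genes were: Ccl25, Cxcl9, Cxcl13 and Ackr1. Ccl22, Ccl28 and Ccr7 had control means of 5.7, 9.9 and 4.5, under the minimum mean of 10. They passed it only through their Steap4AKO values, so the filter favoured their place among the higher genes. When each library was scaled to the same sum, 11 were higher and 2 lower, and Cxcl9 and Cxcl13 then overlapped. By quantile normalization 10 were higher and 3 lower. The shares of all genes under these scalings are not given. Scaling to the same sum moved the median log2 difference of all genes from 0.02 to 0.21, which by itself favours higher over lower genes.

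Values below are the deposited normalized values, in the order Steap4f/f replicates 1, 2, 5 and 6, then Steap4AKO replicates 2 and 3. The Steap4f/f libraries are called the controls. Log2 differences are the Steap4AKO mean of log2(value + 1) less the control mean, with their SE, and adjusted p-values are from limma over all genes.

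Among the ligands, Cxcl9 and Cxcl10 are interferon-induced chemokines that both act on Cxcr3 of activated T cells. Their genes are neighbours within 27.5 kb of chromosome 5 (GRCm38): Cxcl9, ENSMUSG00000029417, at chr5:92321347-92328079 and Cxcl10, ENSMUSG00000034855, at chr5:92346638-92348889, both on the minus strand. Their promoters are shown because these neighbours lay on opposite sides of the controls. The sequences run from 250 bases before to 50 after the start of transcription, on the minus strand, from RefSeq on GRCm38.p6, at chr5:92328030-92328329 and chr5:92348840-92349139. Capitals mark matches to the NF-kB consensus and to the interferon response motif GAAANNGAAA on either strand.
Cxcl9 promoter: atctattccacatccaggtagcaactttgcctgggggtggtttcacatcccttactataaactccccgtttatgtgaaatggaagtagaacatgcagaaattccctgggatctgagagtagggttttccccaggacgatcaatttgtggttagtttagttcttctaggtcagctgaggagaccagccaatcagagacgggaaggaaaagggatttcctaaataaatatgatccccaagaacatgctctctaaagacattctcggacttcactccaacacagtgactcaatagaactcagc
Cxcl10 promoter: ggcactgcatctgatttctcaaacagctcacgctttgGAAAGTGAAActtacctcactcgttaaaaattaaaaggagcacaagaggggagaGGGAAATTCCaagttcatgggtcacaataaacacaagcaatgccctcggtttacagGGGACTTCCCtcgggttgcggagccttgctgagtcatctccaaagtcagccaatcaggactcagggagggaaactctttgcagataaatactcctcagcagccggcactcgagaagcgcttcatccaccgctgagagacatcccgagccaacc
The Cxcl10 window held 1 interferon response motif, 213 bases before the start, and 2 NF-kB matches, 159 and 103 bases before it. The Cxcl9 window held a match to neither. Of the 32544 promoters in the table, 3.45% hold GAAANNGAAA and 4.53% the NF-kB consensus.

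Cxcl9 stood at 1234, 1422, 1128 and 1101 in the controls and 586.4 and 1070 in Steap4AKO. Both Steap4AKO libraries were below every control, replicate 3 by little and not after scaling to equal sums (log2 difference -0.62, SE 0.24, adjusted p = 0.241). Cxcl10 stood at 72.1, 75.2, 72.8 and 47.2 in the controls and 116.5 and 154.2 in Steap4AKO. Both Steap4AKO libraries were above every control, and replicate 3 was the higher (log2 difference 1.02, SE 0.33, adjusted p = 0.187). The ratio of Cxcl9 to Cxcl10, chosen after the values were seen and so not tested, was 17.1, 18.9, 15.5 and 23.3 in the controls and 5.03 and 6.94 in Steap4AKO, with no overlap. Cxcl10 shares 133 exon bases with Art3 on the opposite strand, and the strandedness of the libraries is not given. Art3 was 4248 to 4420 in the controls and 2140 and 5311 in Steap4AKO, below every control in replicate 2 and above every control in replicate 3.

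**Figure D3:**
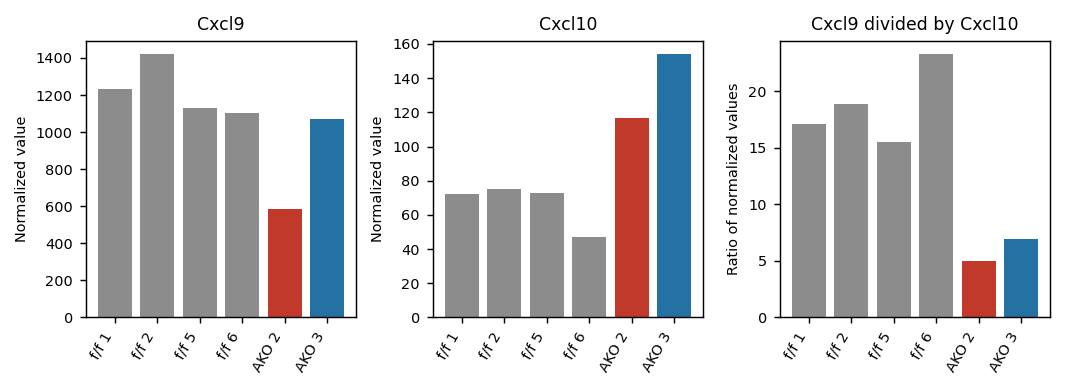
Normalized values of Cxcl9 (left) and Cxcl10 (middle) and their ratio (right), 1 bar per library, with Steap4f/f in grey, Steap4AKO replicate 2 in red and replicate 3 in blue. The ratio is 15.5 to 23.3 in the controls and 5.03 and 6.94 in Steap4AKO.

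Their receptor Cxcr3 stood at 24.5, 37.1, 37.9 and 20.1 in the controls and 62.2 and 24.9 in Steap4AKO. Replicate 2 was the highest library and replicate 3 within the controls (adjusted p = 0.703). Of 10 T and NK cell markers, 6 were in the table, and the NK cell markers Ncr1 and Klrb1c were not. The sum of the 6 was low, 83.2 to 157.5 in the controls and 258.4 and 126.1 in Steap4AKO. As a share of it, Cxcr3 was 18.5 to 35.6% in the controls and 24.1 and 19.7% in Steap4AKO, within the control range in both. Cxcl11, the third Cxcr3 ligand, is annotated as a polymorphic pseudogene and so was no member.

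Ccl2, Ccl7, Ccl12 and Ccl8, named as monocyte chemoattractant proteins, lie with the eosinophil chemoattractant Ccl11 in a gene cluster at chr11:82035571-82116799. Ccl2, the best known ligand of Ccr2, stood at 75.4, 21.7, 64.0 and 83.7 in the controls and 351.8 and 62.5 in Steap4AKO. Replicate 2 was 5.75 times the Steap4f/f mean and replicate 3 was 1.02 times it (log2 difference 1.43, SE 0.77, adjusted p = 0.368). Of the 5 neighbours, Ccl2 was the only member above every control in replicate 2. Ccl7 and Ccl12, other Ccr2 ligands, ranged from 21.7 to 289.1 and from 6.6 to 34.8 in the controls, with 248.8 and 116.7, and 16.5 and 3.7, in Steap4AKO. Ccl8 was 142.9 to 393.0 in the controls and 231.5 and 76.0 in Steap4AKO. Ccl8 and Ccl12 were below every control in replicate 3 alone, with adjusted p of 0.498 and 0.587.

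Ccl11 (eotaxin), which acts on Ccr3 of eosinophils, stood at 1178, 800.5, 648.9 and 746.3 in the controls and 739.9 and 1054 in Steap4AKO, and the groups overlapped (log2 difference 0.10, SE 0.26, adjusted p = 0.855). Ccl24, another eotaxin, was 32.0 to 71.6 in the controls and 65.1 and 102.9 in Steap4AKO (adjusted p = 0.394). Per kb of exon, the highest mean levels of the ligands were those of Ccl11 with 796, Ccl6 with 660 and Cxcl12 with 483. By the longest transcript they were 796, 822 and 702, so that Ccl6 then led. The share of Ccl11 in the summed ligand level per kb of exon was 18.8% ± 0.979 (SD, n = 4) in the controls, against 10.7 and 28% in Steap4AKO replicates 2 and 3. The share thus lay below the controls in one library and above them in the other.

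**Figure D4:**
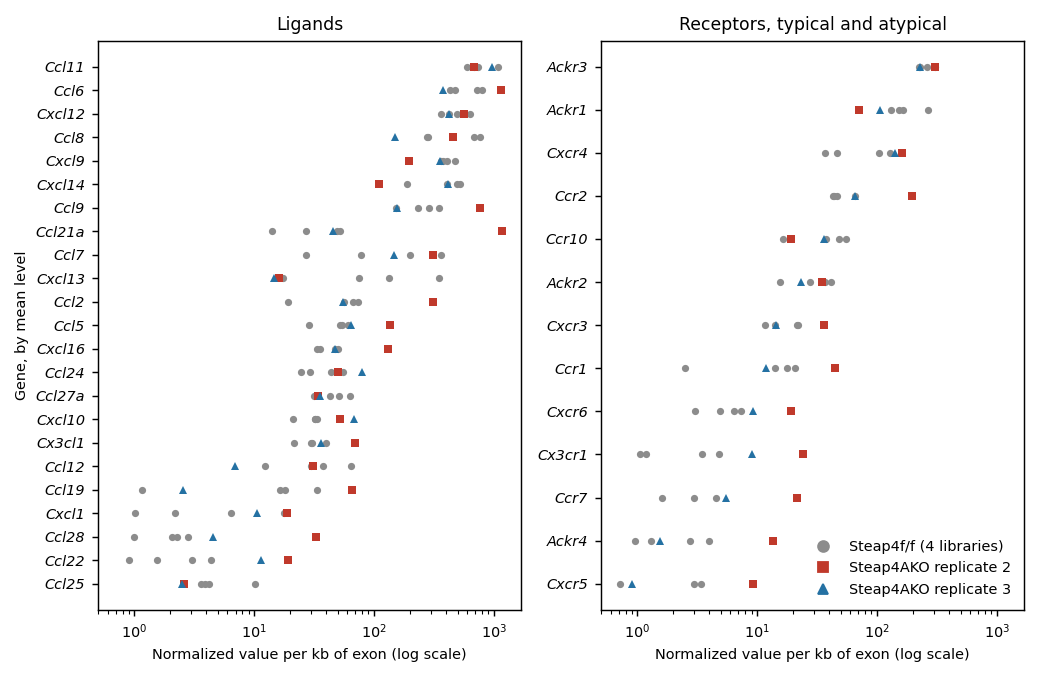
Normalized value per kb of exon (x, log scale) in each library, for ligands (left) and receptors (right, 13 of 14 drawn), sorted by mean. By the mean over exons Ccl11 leads the ligands, though by the longest transcript Ccl6 does, and Ackr3 leads the receptors; Ccr7 and Cxcr5 are at 0 in Steap4f/f replicate 1, which the log axis leaves out.

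Ccl5, Ccl9 and Ccl6, ligands of Ccr1, lie together at chr11:83525778-83593087, and all 3 were above every control in replicate 2. Ccl6 stood at 1428, 777.2, 854.7 and 1292 in the controls and 2071 and 682.6 in Steap4AKO. Ccl9 stood at 869.6, 461.8, 705.5 and 1061 in the controls and 2318 and 473.1 in Steap4AKO. For both genes replicate 2 was the highest library, while replicate 3 was the lowest for Ccl6 and near the lowest for Ccl9 (adjusted p = 0.854 and 0.68). Ccl5 (RANTES) stood at 58.7, 50.4, 52.1 and 27.8 in the controls and 130.4 and 62.3 in Steap4AKO. In both it was above the controls, in replicate 3 by little (log2 difference 0.97, SE 0.47, adjusted p = 0.319). Relative to the sum of the 6 T cell markers, which holds neither Ncr1 nor Klrb1c of NK cells, Ccl5 was 33.1 to 48.4% in the controls. It was 50.4 and 49.4% in Steap4AKO.

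The lymphoid chemokines Ccl19 and Ccl21a, ligands of Ccr7, guide T cells and dendritic cells, and Cxcl13, the ligand of Cxcr5, guides B cells. Ccl21a, ENSMUSG00000094686 at chr4:42772860-42773993, stood at 12.2, 23.7, 45.7 and 42.5 in the controls and 1021 and 39.4 in Steap4AKO. Only replicate 2 stood out, at 32.9 times the Steap4f/f mean, the largest such ratio of a member, while replicate 3 was within the controls (log2 difference 2.83, SE 1.16, adjusted p = 0.255). Ccl19 stood at 14.2, 1.0, 15.6 and 29.3 in the controls and 56.9 and 2.2 in Steap4AKO, highest again in replicate 2 (log2 difference 0.28, SE 1.44, adjusted p = 0.934). Of the 100-base windows of the Ccl21a and Ccl19 exons, 50.3% and 39.3% occur also in near-identical genes, Ccl21b among them for Ccl21a, so that both levels are uncertain. Of 8 markers of lymph node stroma and high endothelial venules, 2 were in the table: Clca3a1 was 21.1 to 96.2 in the controls and 82.6 and 29.8 in Steap4AKO, and Mfge8 was 6011 to 9296 against 22650 and 13385. These 2 did not move together: in both Steap4AKO libraries Clca3a1 was within the controls and Mfge8 above them. Glycam1, Madcam1 and Chst4 were not analysed here, and from 2 of 8 markers the part of lymph node tissue cannot be judged.

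Ccr7 stood at 0.0, 9.0, 5.9 and 3.2 in the controls and 42.9 and 10.9 in Steap4AKO, above the controls in both (log2 difference 2.47, SE 1.20, adjusted p = 0.32). Cxcr5, not tested, stood at 0.0, 11.3, 2.4 and 9.9 in the controls and 30.6 and 3.0 in Steap4AKO. It was highest in replicate 2, and replicate 3 was within the controls. The summed B cell markers were at most 133.7 in the controls and were 452.1 and 50.2 in Steap4AKO. All 6 B cell markers in the table were above every control in replicate 2, and 0 of 6 in replicate 3. As a share of their sum, Cxcr5 was 0 to 21% in the controls and 6.77 and 6.05% in Steap4AKO, within the control range.

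Cxcl13, ENSMUSG00000023078 at chr5:95956951-95961068 on the plus strand, went the other way. It stood at 401.7, 153.5, 86.1 and 20.2 in the controls and 18.7 and 17.0 in Steap4AKO. Both Steap4AKO libraries were the lowest, but Steap4f/f replicate 6 was close to them and the controls spanned 19.9-fold; after scaling to equal sums the groups overlapped (log2 difference -2.46, SE 1.01, adjusted p = 0.254). In replicate 2 the low value stood beside high Cxcr5, Ccl21a and B cell markers. Its promoter is shown as that of the lymphoid ligand that was low where its receptor was high (RefSeq, GRCm38.p6, chr5:95956689-95956988, plus strand), and neither the NF-kB consensus nor GAAANNGAAA was found in it, so that no base is in capitals.
Cxcl13 promoter: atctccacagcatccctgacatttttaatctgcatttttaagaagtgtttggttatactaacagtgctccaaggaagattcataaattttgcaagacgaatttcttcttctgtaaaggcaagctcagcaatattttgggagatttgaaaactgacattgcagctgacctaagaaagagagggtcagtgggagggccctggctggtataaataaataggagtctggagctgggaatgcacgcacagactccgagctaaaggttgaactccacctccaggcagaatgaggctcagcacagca

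Cxcl12, which acts on Cxcr4 and is scavenged by Ackr3, had the highest value of the ligands before division by length. It stood at 5171, 4001, 3446 and 2980 in the controls and 4645 and 3466 in Steap4AKO, within the control range in both (log2 difference 0.07, SE 0.23, adjusted p = 0.89). Cxcr4 stood at 84.7, 232.3, 187.9 and 66.8 in the controls and 292.4 and 256.7 in Steap4AKO. The Steap4AKO libraries were the highest, and the controls formed a low and a high pair (log2 difference 1.12, SE 0.51, adjusted p = 0.295). Cxcl14, a chemokine of epithelia and stroma, stood at 747.6, 944.9, 900.0 and 347.4 in the controls and 203.0 and 758.7 in Steap4AKO. Replicate 2 was the lowest library and replicate 3 was within the controls (log2 difference -0.80, SE 0.57, adjusted p = 0.48).

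Ccl22, a ligand of Ccr4 made by dendritic cells and macrophages, stood at 10.1, 7.0, 3.6 and 2.1 in the controls and 44.2 and 26.8 in Steap4AKO. It was higher in both Steap4AKO libraries, at 7.77 and 4.71 times the Steap4f/f mean (log2 difference 2.57, SE 0.82, adjusted p = 0.181). Ccl28, a mucosal epithelial ligand of Ccr10, stood at 10.1, 11.1, 4.8 and 13.7 in the controls and 158.7 and 21.8 in Steap4AKO. It was higher in both, at 16 and 2.19 times the mean (log2 difference 2.55, SE 0.87, adjusted p = 0.199). The epithelial marker Epcam stood at 0.0, 0.0, 2.4 and 0.0 in the controls and 412.0 and 0.0 in Steap4AKO, and all 6 epithelial markers were above every control in replicate 2. In replicate 3, where Ccl28 was also above the controls, 0 of the 6 were.

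Ccr10 itself was 28.6 to 94.8 in the controls and 32.9 and 62.7 in Steap4AKO, within the control range (adjusted p = 0.705). Its other ligand, the skin chemokine Ccl27a, was 74.6 to 149.2 and 81.0 and 84.2, also within it (adjusted p = 0.564), though 26.5% of its 100-base windows occur in other genes. Ccl25, the ligand of Ccr9, stood at 29.1, 27.0, 31.3 and 76.4 in the controls and 19.5 and 18.8 in Steap4AKO. It was lower in both Steap4AKO libraries (log2 difference -0.92, SE 0.56, adjusted p = 0.42), and shares 204 exon bases with Elavl1 on the opposite strand. Cxcl1, a neutrophil chemoattractant acting on Cxcr2, was 1.9 to 33.4 in the controls and 35.2 and 20.0 in Steap4AKO (adjusted p = 0.452).

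The membrane-bound ligands Cx3cl1 (fractalkine) and Cxcl16 each have a single typical receptor, Cx3cr1 and Cxcr6, and all 4 genes were above every control in replicate 2. Cx3cl1 stood at 155.3, 120.1, 116.9 and 85.0 in the controls and 271.8 and 143.3 in Steap4AKO, with replicate 3 within the controls (log2 difference 0.75, SE 0.35, adjusted p = 0.31). Cx3cr1, the receptor of patrolling monocytes and some macrophages, ENSMUSG00000052336 at chr9:119901616-120069879, stood at 5.3, 21.7, 15.7 and 4.8 in the controls and 109.9 and 41.1 in Steap4AKO. It was above every control in both, and its adjusted p was the smallest of the members (log2 difference 2.66, SE 0.80, adjusted p = 0.168). Cxcl16 was 101.1 to 150.8 in the controls and 393.6 and 143.4 in Steap4AKO (adjusted p = 0.283). It shares 552 exon bases with Zmynd15 on the opposite strand, which was 20.9 to 54.9 in the controls and 111.0 and 47.6 in Steap4AKO, high in the same library. Cxcr6, found on T and NK cells, was 5.9 to 14.1 in the controls and 37.2 and 17.9 in Steap4AKO, above the controls in both (adjusted p = 0.358).

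The inflammatory receptors Ccr1 and Ccr2 of monocytes and macrophages lie on chromosome 9, as does Cxcr6, and all 3 were above every control in replicate 2. Ccr2, ENSMUSG00000049103 at chr9:124101950-124113557, the main receptor for monocyte entry, stood at 293.7, 311.5, 443.3 and 291.7 in the controls and 1315 and 442.1 in Steap4AKO. Replicate 2 was 3.92 times the Steap4f/f mean and replicate 3 was just under the highest control (log2 difference 1.21, SE 0.40, adjusted p = 0.193). Ccr1 was 7.1 to 59.2 in the controls and 127.6 and 33.7 in Steap4AKO (adjusted p = 0.558). The promoter of Ccr2 is shown, with the same marking, as that of the receptor through which monocytes enter the tissue (RefSeq, GRCm38.p6, chr9:124101933-124102232, plus strand), and neither motif was found in it. The window follows the RefSeq start and begins just before the gene start given above. Most of it thus lies inside the annotated gene, and the bases upstream of that start were not searched.
Ccr2 promoter: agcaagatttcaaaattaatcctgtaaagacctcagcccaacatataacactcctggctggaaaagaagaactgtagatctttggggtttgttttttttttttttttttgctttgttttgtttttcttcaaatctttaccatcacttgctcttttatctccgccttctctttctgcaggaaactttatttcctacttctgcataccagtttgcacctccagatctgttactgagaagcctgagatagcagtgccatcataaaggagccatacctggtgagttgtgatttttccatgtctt

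The macrophage marker Adgre1 stood at 159.6, 229.4, 374.6 and 231.5 in the controls and 1750 and 291.8 in Steap4AKO, and 8 of the 10 macrophage and monocyte markers were above every control in replicate 2, against 0 of 10 in replicate 3. Relative to the sum of these markers, Ccr2 was 3.83 to 5.56% in the controls and 5.27 and 6.24% in Steap4AKO. Ccr1 was 0.0991 to 0.813% and 0.511 and 0.475%, so that relative to the markers both receptors were within the control range in replicate 2, and Ccr2 was above it in replicate 3. Cx3cr1 was 0.0658 to 0.305% in the controls and 0.44 and 0.58% in Steap4AKO, above the controls in both. Ccl6 was 10.7 to 18.6% and 8.3 and 9.63%, below them in both. The largest marker of the sum was Lyz2, at 3.28 and 0.984 times the Steap4f/f mean in replicates 2 and 3. Single markers ranged from 1.08 times (Cd14) to 7.03 times (Adgre1) in replicate 2, so these shares depend on the markers summed.

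**Figure D5:**
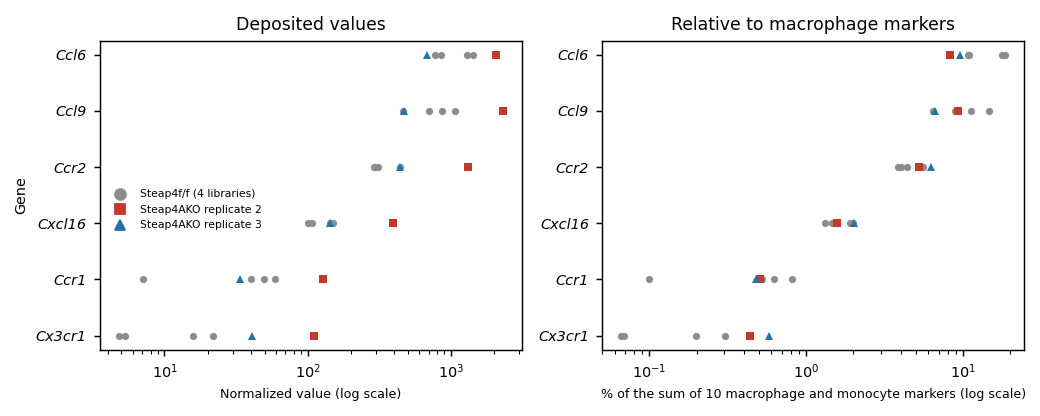
Chemokine and receptor genes of myeloid cells in each library, as deposited values (left, log scale) and as % of the sum of 10 macrophage and monocyte markers (right, log scale). Steap4AKO replicate 2 is apart on the left; on the right Ccr2, Ccr1, Ccl9 and Cxcl16 lie within the controls in that library, Cx3cr1 above and Ccl6 below.

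The atypical receptors made up most of the receptor RNA per kb in the controls, with Ackr3 at 36.8% and Ackr1 at 25.9% of the summed level. Ackr3, which scavenges Cxcl12, stood at 869.6, 1020, 758.9 and 747.9 in the controls and 1014 and 772.1 in Steap4AKO, within the control range (log2 difference 0.07, SE 0.19, adjusted p = 0.863). The ratio of Cxcl12 to Ackr3 was 3.92 to 5.95 in the controls and 4.58 and 4.49 in Steap4AKO. Ackr2, which degrades inflammatory CC chemokines, stood at 115.1, 85.7, 48.7 and 130.1 in the controls and 108.3 and 72.3 in Steap4AKO, also within it (log2 difference -0.01, SE 0.45, adjusted p = 0.995). Ackr4, a scavenger of Ccl19 and Ccl21, stood at 7.0, 5.2, 14.8 and 21.3 in the controls and 73.2 and 8.3 in Steap4AKO. Replicate 2 alone stood apart (log2 difference 1.19, SE 0.99, adjusted p = 0.551), and 479 of its exon bases are shared with Acad11 on the opposite strand.

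Ackr1, the receptor of venular endothelium that carries chemokines across the vessel wall, ENSMUSG00000037872 at chr1:173331886-173333750, was the only receptor below every control in both Steap4AKO libraries. It stood at 375.4, 232.1, 182.7 and 215.3 in the controls and 99.9 and 148.4 in Steap4AKO. The lowest was replicate 2 (log2 difference -0.98, SE 0.33, adjusted p = 0.194). The summed endothelial markers were 1.05 and 1.17 times the Steap4f/f mean in replicates 2 and 3, and relative to them Ackr1 was 1.01 to 2.04% in the controls and 0.524 and 0.693% in Steap4AKO, again with no overlap. Single markers differed: Tek was 1.24 and 1.47 times its Steap4f/f mean and Vwf 0.901 and 0.738 times. The sum does not measure venules apart from other vessels, and the part of venules in the Ackr1 values was not tested. Ackr1 shares 361 exon bases on the same strand with Cadm3, which was 374.4 to 682.7 in the controls and 319.1 and 648.1 in Steap4AKO, so that its level depends on how reads were divided between the genes.

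By position, some gene clusters lay above the controls as a whole in replicate 2 and others did not. All 3 genes of the Ccl5-Ccl9-Ccl6 cluster were above every control, as were both of the Ccl22-Cx3cl1 pair on chromosome 8. So were both of the Ccl19-Ccl21a pair on chromosome 4, and Cxcr6, Ccr1 and Ccr2 on chromosome 9. In the Ccl2 cluster 1 of 5 was, and of Cxcl9 and Cxcl10 1 was above and 1 below. Of all genes, 31.5% were above and 28.6% below. The genes around the chemokine system also had 0 calls in limma, with 10 of 28, 5 of 12, 2 of 15 and 2 of 10 genes at an unadjusted p under 0.05 in the lists of signalling, adhesion, inducers and genes outside the name patterns, against 18.1% of all genes. Of 28 genes of chemokine receptor signalling (G proteins, kinases and regulators), 25 had a positive and 3 a negative log2 difference, with a median of 0.49, and 22 were above every control in replicate 2 and 9 in replicate 3, against 31.5% and 24.4% of all genes. The summed macrophage and monocyte markers were 3.32 and 0.944 times the Steap4f/f mean in these libraries, and their part in these counts was not tested. Of 12 genes of leukocyte adhesion and arrest in the table, 9 were positive and 3 negative with a median of 0.92. By library, their median deviation from the Steap4f/f mean was 1.27 in replicate 2 and 0.42 in replicate 3. Here too the part of the macrophage and monocyte markers was not tested. Of 15 inducers of chemokine transcription, 11 were positive and 4 negative with a median of 0.23. Of 10 chemokine genes outside the name patterns, such as Pf4 and Rarres2 (chemerin), 6 were positive and 4 negative with a median of 0.19.

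Across the members, 27 of the 37 had a promoter in the RefSeq table, with 30 promoters in all. The NF-kB consensus was found in promoters of the ligands Cxcl1, Cxcl10, Ccl9 and Ccl27a and of Ackr2, which is 16.7% of the 30. The interferon response motif was found for Ccl19, Cxcl10 and Cxcl14, or 10%. The AP-1 motif TGANTCA, searched on both strands, was found for Ccl9, Ccl27a, Ccl28, Cxcl9 and Cxcl10, or 16.7%, against 7.79% of all promoters. The STAT motif TTCNNNGAA was found for Cxcl14 alone, or 3.33%, against 8.33% of all promoters, and TATAAA in 33.3%, against 13.6%. These matches are descriptions of the windows, and members with a match were on both sides of the controls: Ccl9 and Cxcl10 above them and Cxcl9 below them in replicate 2.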

How the data were processed

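Per the labels' protocols, total RNA was isolated from iWAT with a lipid tissue kit. Per the submitters' processing notes, which give no role or order, GRCm38 and mm10 were the builds, and DESeq2 1.12.4, R 4.2.0, RSEM 1.3.3 and STAR 2.7.0e were used. Neither annotation nor strandedness is given in the sources used here. As its name says, the deposited table holds a normalized signal per gene, counts that the authors scaled in DESeq2. At the best step of each column, 34.5 to 60% of low values were within 0.1 of whole reads, so reads were not recovered, count tests were not run, and no counting intervals are given.

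Symbols came from GENCODE M21 (15125 genes matched, 51 did not). limma 3.58.1 in R 4.3.3 (trended variance, two-sided, Benjamini-Hochberg over all genes, threshold 0.05) was run on log2(value + 1) for 15006 genes with a mean of at least 10, which removed 170, and was tested on simulated data. The pseudocount understates changes of low genes. No covariate was fitted. Levels per kb used the union of exons. Promoters, from RefSeq, were found for 27 of the 37 members. Tables and figures used Python 3.11.15.

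The members, gene lists and tests were chosen with earlier results of these data known. Genes shown with every library were the 6 ligands and 4 receptors with the highest means, the 6 and 4 with the smallest p, and a preset list; Ccl25, Cxcr3, and the promoters were chosen after values were seen. Alternatives were other pseudocounts, filters and scalings, array weights, the longest transcript and each library left out. The values of 1 member and of 1 B cell marker are not reported here, though counts and medians include them.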

Additional observations from a re-analysis of the deposited data

Results flagged for a closer look

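Of 37 members checked in the 4 Steap4f/f libraries, 3 had a library far from the others; chance alone flags about 1 in 20. Ccl25 was 76.4 in Steap4f/f replicate 6 and 27.0 to 31.3 in the other controls. Ccr2 was 443.3 in replicate 5 and 291.7 to 311.5 in the others, so that the 442.1 of Steap4AKO replicate 3 was above every control but this one. Cxcl10 was 47.2 in replicate 6 and 72.1 to 75.2 in the others; both Steap4AKO libraries were above all 4 controls.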

How the results depend on the processing

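No paired analysis was possible because the groups share only replicate number 2. Over all genes, 71 were called; 1 with a pseudocount of 0.5 or a minimum mean of 50, 123 with a pseudocount of 5, 119 with array weights, and 1 to 821 with a library left out. Of the members, 0 were called in every alternative except without Steap4AKO replicate 3, when 4 of 37 were, beside 821 (5.47%) of all genes: Cxcl9 (log2 difference -1.05, adjusted p = 0.0422), Ccr2 (1.99, 0.0309), Ccl28 (3.95, 0.038) and Ccl21a (5.16, 0.0345). That fit leaves replicate 2 alone and assumes that it varies like the controls. Without Steap4AKO replicate 2, the only called gene was no member, and Ccl22 and Ccr7 fell under the minimum mean and had no value.

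Members higher in all Steap4AKO than Steap4f/f libraries numbered 8, and 3 with a minimum mean of 50 (which leaves 25 members). With a library left out they numbered 7 (of 34, without Steap4AKO replicate 2) to 22 (of 37, without replicate 3). Those lower numbered 4, 2 with column sum scaling, and 4 to 7 with a library left out. Of all genes in the main fit, 14.1% were higher and 14.4% lower in both Steap4AKO libraries. These shares were 31.5% and 28.6% for replicate 2 alone, and 24.4% and 23.4% for replicate 3 alone. Shares of all genes in the other settings are not given. The median log2 difference of ligands was 0.50 (0.17 to 0.98 with a library left out, the ends being Steap4AKO replicates 2 and 3). That of receptors was 1.07, 0.57 with a minimum mean of 50, and -0.03 to 1.89 with a library left out, the ends again being Steap4AKO replicates 2 and 3. With a minimum mean of 50, the medians in replicate 2 were 0.82 for ligands and 0.75 for receptors in place of 0.98 and 1.89, so that receptors less ligands was -0.07 in place of 0.91. The settings for that difference were added after seeing the data. Column sum scaling moved the median of all genes to 0.21.

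Of 291 alternative values over 23 members, 270 kept their direction and side of the threshold, 4 passed it and 17 changed sign. Ackr2 was 0.17 with column sum scaling and 0.16 with array weights, and Ccl19 was -0.13 by quantile normalization. With a library left out, Ackr2 ranged from -0.30 to 0.28, Ackr3 from -0.13 to 0.27, Ackr4 from -0.31 to 2.69, Ccl11 from -0.15 to 0.36, Ccl19 from -1.80 to 2.37, Ccl6 from -0.62 to 0.98, Ccl9 from -0.65 to 1.64, Cxcl12 from -0.14 to 0.28 and Cxcl14 from -1.75 to 0.15. By the longest transcript, the level per kb of Cxcl12 was 702, against 483, and that of Ccl6 was 822, against 660 and above the 796 of Ccl11. The cause of these shifts was not tested. Depth in reads is unknown, and low values, such as the control values of Ccr7, Cxcr5 and Ackr4, are the least precise.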
